A study of Sus scrofa with 12 samples.

Results

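SPP1 and IBSP encode osteopontin and bone sialoprotein, members of the SIBLING family of secreted bone matrix proteins. They were chosen as the probe sets whose single gene symbol in the array annotation was SPP1 or IBSP, and each gene had 1 such probe set, so the pair made up 2 of 24123 probe sets and 2 of 6765 genes named on the array. The genes were chosen from earlier results of these data, with their levels by prolificacy group and their relation across sows in view. Their levels, their differences between the groups and their relation to each other are therefore given as descriptions.

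Ovaries came from 12 F2 sows, bred from Iberian and Meishan pigs, each a separate animal killed on day 30 of pregnancy. In 6 sows, the high group, the estimated breeding value (EBV) for prolificacy was the higher one, and in 6 sows, the low group, it was the lower one. The study compared ovarian transcripts between the 2 groups with Affymetrix porcine arrays, 1 per sow. According to the design text each sample averages the sow's right and left ovary, with no word on the stage at which they were combined. The breeding value is a genetic estimate, so the labels do not give the number of piglets each sow carried.

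SIBLING proteins are acidic phosphoproteins that hold the RGD motif through which cells attach to matrix by integrins, and their genes lie side by side in mammals. Osteopontin is made in bone, but also by macrophages and by many epithelia, and in the pig it is known from the uterus in early pregnancy. Bone sialoprotein is known above all from mineralised tissue, where it binds hydroxyapatite. Enzymes change both proteins after secretion, among them phosphatases that remove phosphate and proteases that cut the chain.

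Values are GCRMA values on the log2 scale, on which a step of 1 is a doubling and undetected probe sets lie near 2. A probe set was tested where it was above 4 in at least 6 sows, which 13390 probe sets were. The arrays were alike as a whole, with medians between 4.81 and 4.97 and rank correlations between 0.974 and 0.993. The number of sows limits the precision of every difference. As a check of the ovarian label, all 11 luteal markers measured were above 4 in every sow, while all 8 T cell and B cell markers measured were under 4 in every sow.

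SPP1 was above 4 in all 12 sows but differed widely between them. In the high sows, numbered 1 to 6, SPP1 had log2 values of 10.23, 7.27, 10.68, 6.13, 8.08 and 7.78. In the low sows, numbered 1 to 6, it had log2 values of 12.82, 6.28, 12.02, 11.25, 12.68 and 8.12. The 4 highest values were those of low sows, but low 2 and low 6 stood among the high sows, so the groups overlapped. Within its own array, SPP1 exceeded 59.6% of all probe sets in high 4, the lowest sow, and 99.0% in low 1, the highest.

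The mean SPP1 level was 8.36 ± 1.76 in high and 10.53 ± 2.70 in low sows (SD, n = 6 each), with medians of 7.93 and 11.64. The high minus low difference was -2.17 on the log2 scale (SE 1.17, 95% interval -4.71 to 0.38), which corresponds to a 4.49-fold lower level in the high group. Of the high sows 5 of 6 lay below the low mean, and of the low sows 4 of 6 lay above the high mean. In the limma fit over all probe sets, with Benjamini-Hochberg adjustment, SPP1 did not pass the threshold (adjusted p = 0.888).

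IBSP was low or near the floor in some high sows and well above it in all low sows. In the high sows, IBSP had log2 values of 4.51, 7.43, 6.17, 3.08, 10.44 and 9.63. In the low sows it had log2 values of 10.15, 9.73, 7.55, 8.71, 10.42 and 9.98. The 4 lowest values were those of high sows, while high 5 was the highest of all 12 sows, so these groups overlapped too. IBSP was above 4 in 11 of 12 sows, all but high 4, where 36.5% of the probe sets were dimmer.

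The mean IBSP level was 6.88 ± 2.87 in high and 9.42 ± 1.09 in low sows (SD, n = 6 each), with medians of 6.80 and 9.86. The high minus low difference was -2.55 on the log2 scale (SE 1.12, 95% interval -4.97 to -0.13), or 5.84-fold lower in the high group, with the value of high 4, which lay under 4, taken as deposited. Of the high sows 4 of 6 lay below the low mean, and all 6 low sows lay above the high mean. IBSP did not pass after adjustment over all probe sets either (limma adjusted p = 0.860).

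**Figure D1:**
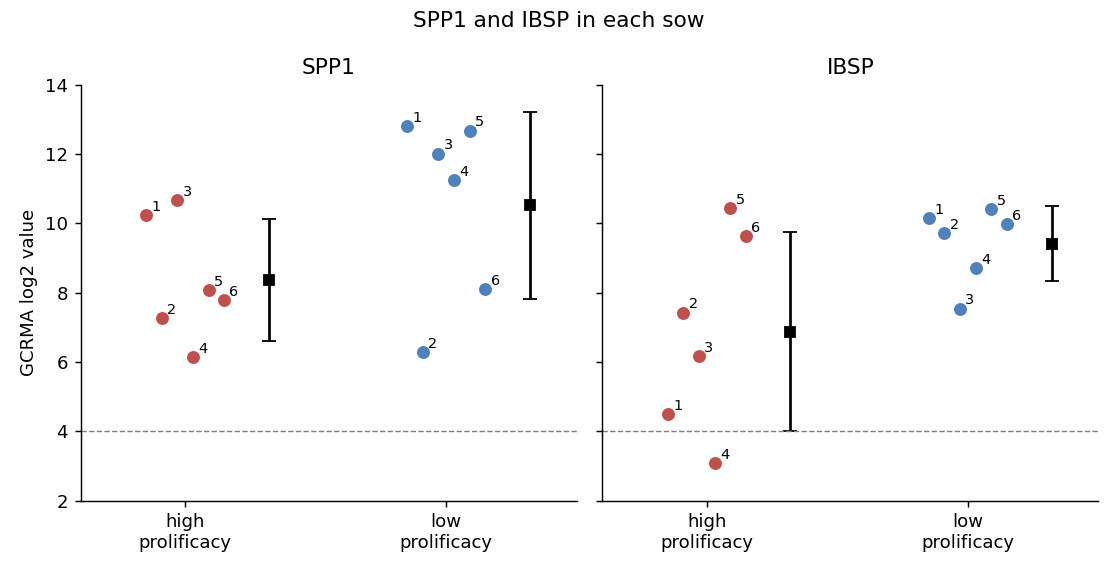
SPP1 (left panel) and IBSP (right panel) as GCRMA log2 values in each of the 12 sows, with high sows left of low sows. Each point is a sow with its number, the black square and bar are the group mean and SD, and the dashed line is the level of 4 used in the filter. SPP1 is spread from 6.13 to 10.68 in high and from 6.28 to 12.82 in low sows, and IBSP from 3.08 to 10.44 in high and from 7.55 to 10.42 in low sows.

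No probe set of the array passed the adjusted threshold in this comparison, 0 of 13390 or 0%, with a smallest adjusted p of 0.460. At an unadjusted p under 0.05 it was 755 probe sets or 5.64%, and lower in the high group 452 or 3.38%, with IBSP among these and SPP1 not. The groups did not overlap at 63 probe sets or 0.471%, and neither SPP1 nor IBSP was among them. A difference of 2 or more on the log2 scale, lower in the high group, was seen at 4 probe sets or 0.0299%. These 4 were TTC38, IBSP, LITAF and SPP1, with differences of -2.70, -2.55, -2.18 and -2.17.

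Both genes varied more between sows than nearly every other tested probe set. The SD over the 12 sows was 2.46 for IBSP and 2.45 for SPP1, the 5th and 6th of 13390 when ordered from the highest, against a median of 0.287 on the log2 scale over all tested probe sets. From the lowest to the highest sow, SPP1 covered 6.69 on the log2 scale. IBSP covered 7.36, but its lowest value, 3.08 in high 4, lay under the level of 4 and bounds the true range from below. The widest step between neighbouring sows in the order of SPP1 was 2.11, between low 6 at 8.12 and high 1 at 10.23, with 6 sows on each side of it. For IBSP the widest step was 1.66, between high 1 at 4.51 and high 3 at 6.17. Spread that large within both groups left the intervals of the differences wide.

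Across the 12 sows the 2 genes showed little relation to each other. Pearson's r between SPP1 and IBSP was 0.21 and Spearman's rho was 0.33, with a jackknife SE of 0.37 for r. Within the 6 high sows r was -0.032, within the 6 low sows it was -0.15, and with the group means removed it was -0.06. Without low 1 and low 5, the sows farthest from the median SPP1 level, r was -0.071. Leaving out each sow in turn gave values between -0.10 and 0.32. Spearman's rho was 0.14 within high and 0.43 within low sows. In the 6 sows with the lowest SPP1 r was 0.676, and in the 6 with the highest it was 0.917. This division at the widest step was chosen after the values were seen, and its sides are not groups of the study.

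Single sows show how the genes came apart. Low 2 had the second lowest SPP1 level, 6.28, with IBSP at 9.73, and high 5 had SPP1 at 8.08 with the highest IBSP level, 10.44. High 1 had SPP1 at 10.23 with IBSP at 4.51. Low 1 and low 5 were high in both genes, and high 4 was the lowest of the 12 sows in both.

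**Figure D2:**
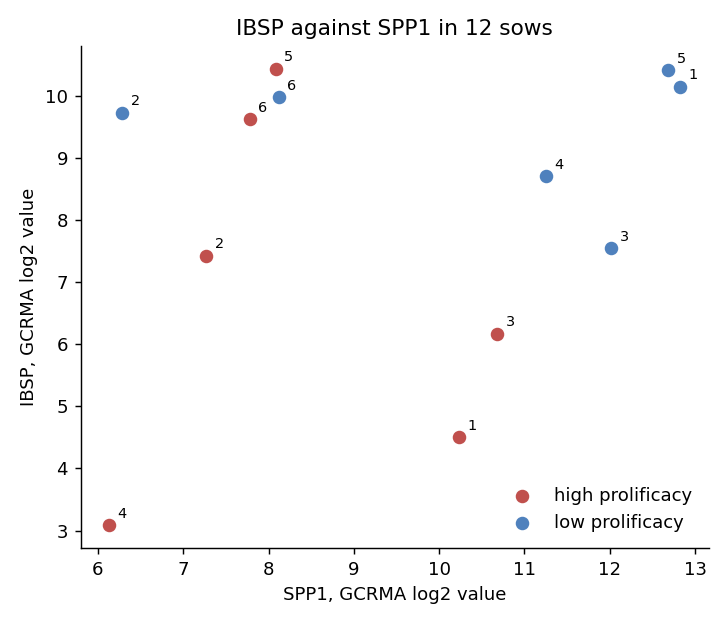
IBSP against SPP1 in the 12 sows, both as GCRMA log2 values, with each sow's number beside its point and the group given by colour. Sows with SPP1 under 8.2 hold IBSP values from 3.08 to 10.44, and sows with SPP1 over 10 hold IBSP values from 4.51 to 10.42.

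Of the other SIBLING genes, DMP1 and DSPP were near the floor in every sow. DMP1, a matrix protein of osteocytes and dentine, had 2 probe sets, and DSPP, the precursor of dentine sialoprotein and phosphoprotein, had 3. All 5 lay between 2.03 and 3.08 in all 12 sows, so neither had a level that could be compared. No probe set carried the symbol of MEPE, which is not analysed here.

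In the gene order of the RefSeq assembly Sscrofa11.1, MEPE is the 1 gene between SPP1 and IBSP, DMP1 and DSPP follow IBSP, and PKD2 stands on the other side of SPP1. Of the genes around the cluster, those measured above the floor were ABCG2, SPARCL1 and NUDT9. ABCG2, a membrane transporter, had 2 probe sets, with means of 9.07 in high and 9.23 in low sows and of 5.80 in high and 5.66 in low sows. Their r with SPP1 was 0.61 and 0.43, and with IBSP 0.18 and -0.54. SPARCL1, a matrix glycoprotein related to osteonectin, averaged 11.70 in high and 11.60 in low sows and had r = 0.62 with SPP1 and -0.25 with IBSP. NUDT9, a hydrolase of ADP-ribose, averaged 10.09 in high and 10.04 in low sows at its brighter probe set, with r = 0.29 to SPP1 and -0.55 to IBSP. Its other probe set averaged 7.16 in high and 7.40 in low sows, with r = 0.52 to SPP1 and 0.11 to IBSP. The differences of these neighbours between the groups were between -0.24 and 0.13 on the log2 scale, against more than 2 in size for SPP1 and IBSP.

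The integrin receptors of RGD proteins were measured at even levels. Of 10 genes listed, 6 were tested, 3 were higher and 3 lower in the high group, 0 passed the threshold, and their median difference was -0.0026 against -0.010 over all tested probe sets. ITGAV, the subunit that pairs with several partners to bind osteopontin, averaged 9.99 ± 0.39 in high and 9.98 ± 0.24 in low sows. ITGB1, the common beta subunit, averaged 12.21 ± 0.17 in high and 12.23 ± 0.11 in low sows. ITGB3 averaged 5.84 ± 0.50 in high and 5.71 ± 0.48 in low sows, and ITGB5 9.0 ± 0.37 in high and 9.10 ± 0.58 in low sows. Thus the subunits that pair with ITGAV differed by 0.12 or less in either direction.

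ITGA5, the fibronectin receptor subunit, averaged 6.69 ± 0.52 in high and 6.32 ± 0.25 in low sows, a difference of 0.37 on the log2 scale (limma adjusted p = 0.899). ITGA8, a subunit of an RGD receptor known to bind osteopontin, averaged 5.80 ± 1.10 in high and 5.94 ± 0.81 in low sows. ITGA8 was the receptor gene most like SPP1 across sows, with r = 0.65 at its brightest probe set and 0.54 and 0.72 at the other two. CD44, ITGB6, ITGA4 and ITGA9 were not matched by symbol and are not analysed here.

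Among the enzymes listed as acting on SIBLING proteins, the phosphatase ACP5 stood closest to SPP1. ACP5 is the tartrate-resistant acid phosphatase that takes phosphate off osteopontin, and in the pig it is also known as uteroferrin of the endometrial glands. In the high sows, numbered 1 to 6, ACP5 had log2 values of 6.07, 3.96, 6.85, 4.86, 5.32 and 5.50. In the low sows it had log2 values of 7.73, 4.93, 6.96, 7.10, 7.79 and 5.37. The sows high in ACP5 were those high in SPP1, in both groups, and low 2 and low 6 were again among the high sows.

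ACP5 averaged 5.43 ± 0.99 in high and 6.65 ± 1.21 in low sows, a difference of -1.22 on the log2 scale that did not pass (limma adjusted p = 0.874). Over the 12 sows its r with SPP1 was 0.944 and rho was also 0.944, the highest r of the other 13389 tested probe sets. It was 0.929 with group means removed, 0.906 without low 1 and low 5, and 0.424 and 0.917 in the 6 sows with the lowest and the highest SPP1. That division, at the widest step in SPP1, was chosen after the values were seen, and the sows on its 2 sides are not groups of the study. With IBSP, r of ACP5 was 0.23.

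The other enzymes showed smaller differences, and 0 of the 5 tested of 13 listed passed. MMP2, a matrix metalloprotease, averaged 9.80 ± 0.99 in high and 9.79 ± 0.95 in low sows and had r = 0.62 with SPP1. ALPL, the tissue-nonspecific alkaline phosphatase of mineralising cells, averaged 8.99 ± 0.50 in high and 9.08 ± 0.56 in low sows, with r = 0.084 to SPP1 and 0.10 to IBSP. ENPP1, which makes the mineralisation inhibitor pyrophosphate, averaged 7.63 ± 0.85 in high and 8.25 ± 0.32 in low sows. Its r was 0.31 with SPP1 and 0.028 with IBSP. LOX, which cross-links collagen, averaged 9.0 ± 0.53 in high and 8.48 ± 0.40 in low sows, with r = -0.065 to SPP1 and -0.30 to IBSP. MMP3, MMP7, MMP9 and PHEX, proteases that can cut SIBLING proteins or peptides from them, were under 4 in all 12 sows.

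Transcription factors of the bone programme gave few values. Of 15 listed, 4 carried a symbol and 1 was tested. This was MITF, a factor of osteoclasts and pigment cells, with 7.30 ± 0.62 in high and 7.46 ± 0.35 in low sows and r = -0.064 to SPP1 and -0.30 to IBSP. SP7, the osteoblast factor osterix, as well as DLX5 and SP1 were under 4 in every sow.

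Other genes of the bone matrix differed widely in level, from near the floor to above 14 on the log2 scale. Of 21 listed, 13 had a probe set and 8 were tested, 5 were higher and 3 lower in the high group, 0 passed, and the median difference was 0.10 on the log2 scale. SPARC, or osteonectin, averaged 14.06 ± 0.22 in high and 13.90 ± 0.17 in low sows, and MGP, an inhibitor of calcification, 13.45 ± 0.45 in high and 13.60 ± 0.38 in low sows. FN1, fibronectin, averaged 9.88 ± 0.60 in high and 10.57 ± 0.64 in low sows, a difference of -0.69 (limma adjusted p = 0.874), with r = 0.70 to SPP1 and 0.51 to IBSP. BGLAP, the osteoblast protein osteocalcin, was under 4 in all sows.

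POSTN, or periostin, averaged 7.56 ± 0.62 in high and 7.87 ± 0.65 in low sows. THBS1, thrombospondin, averaged 12.56 ± 0.54 in high and 12.31 ± 0.41 in low sows at its brightest probe set. VTN, vitronectin, an RGD protein of plasma made in liver, was not tested because it was above 4 in too few sows. VTN lay between 3.13 and 3.38 in high sows and between 3.33 and 9.05 in low sows. The sows with VTN above 4 were low 1, low 3 and low 4, at 9.05, 5.24 and 8.19.

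SPP1 and IBSP were then set against the scores of 12 gene lists with at least 5 tested members, a score being the mean log2 deviation of the members from their means over the 12 sows. Of the 24 relations, 2 passed after Benjamini-Hochberg adjustment of two-sided permutation tests with 100000 resamples, and both were relations of SPP1. The genes, lists and tests had been chosen with earlier results of these data known, so the p-values of these relations are descriptions. With the score of the enzymes acting on SIBLING proteins, r was 0.889 (permutation p = 0.00022, adjusted p = 0.00528) and rho was 0.902 (permutation p = 0.00019, adjusted p = 0.00456). This r was 0.874 without the 2 sows farthest from the median score, 0.976 within high and 0.838 within low sows. The 5 members scored were ACP5, MMP2, ALPL, ENPP1 and LOX. ENPP1 and LOX are known for pyrophosphate and collagen, so the name of the list does not hold for every member. The median r of the 5 members with SPP1 was 0.314, and members with a wider spread weigh more in the score.

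The second relation was with a list of osteoclast and foam macrophage genes, at r = 0.837 (permutation p = 0.00087, adjusted p = 0.0104) and rho = 0.797 (permutation p = 0.00269, adjusted p = 0.0323). It was 0.820 without the 2 sows farthest from the median score, 0.675 within high and 0.871 within low sows. In the 6 sows with the lowest and the 6 with the highest SPP1, r with the enzyme score was 0.873 and 0.201. With the osteoclast and foam macrophage score it was 0.668 and 0.500.

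ACP5 belongs to both lists, and both relations were smaller without it. Without ACP5, r of SPP1 was 0.569 with the remaining 4 enzymes (permutation p = 0.0523) and 0.63 with the remaining 5 osteoclast and foam macrophage genes (permutation p = 0.0314; rho = 0.524, permutation p = 0.0827). These scores without ACP5 were an alternative added after the values had been seen, and their p-values are not adjusted. Within groups the remaining enzymes gave 0.931 in high and 0.455 in low sows. The remaining osteoclast and foam macrophage genes gave 0.146 in high and 0.761 in low sows.

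**Figure D3:**
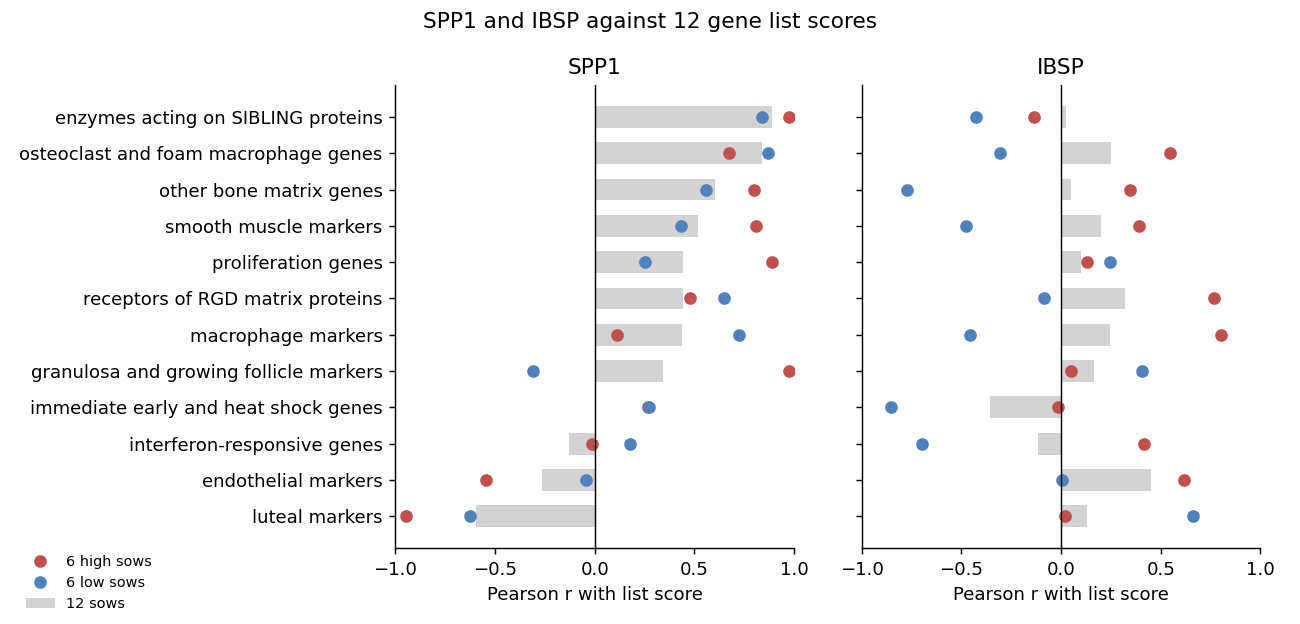
Pearson r of SPP1 (left panel) and IBSP (right panel) with the scores of 12 gene lists. Grey bars give r over 12 sows and points give r within the 6 high and within the 6 low sows; the bars of SPP1 reach 0.889 for the enzymes and 0.837 for the osteoclast and foam macrophage genes, while no bar of IBSP exceeds 0.453 in size.

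No relation of IBSP passed. The largest in size was with the endothelial markers, r = 0.453 (permutation p = 0.143, adjusted p = 0.408) and rho = 0.469, and it was 0.136 without 2 sows, 0.62 within high and 0.0037 within low sows. With the enzyme score, r of IBSP was 0.024, against 0.889 for SPP1, and with the osteoclast and foam macrophage score it was 0.25, against 0.837. The difference between the 2 genes in these relations was not tested.

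Several other relations of SPP1 were of moderate size and missed the threshold. With the luteal markers r was -0.596 (permutation p = 0.0378, adjusted p = 0.236), at -0.948 within high and -0.627 within low sows. With the other bone matrix genes it was 0.605 (permutation p = 0.0394, adjusted p = 0.236), and 0.287 without the 2 sows farthest from the median score. With the granulosa and growing follicle markers r was 0.344 (permutation p = 0.269, adjusted p = 0.587), but 0.98 within high and -0.31 within low sows. With the proliferation genes it was 0.442 (permutation p = 0.151, adjusted p = 0.408), at 0.891 within high and 0.253 within low sows.

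Macrophage markers were present and most, but not all, were higher where SPP1 was higher. Of 22 listed, 13 were tested, 5 were higher and 8 lower in the high group, 0 passed, and the median difference was -0.035 on the log2 scale. The summed log2 values of the 15 markers with a probe set lay between 101.2 and 112.6 in high sows and between 97.6 and 111.7 in low sows. MARCO and ITGAM were under 4 in every sow. The median r with SPP1 was 0.591 over the 13 tested markers, against -0.025 over all tested probe sets. It was positive for 8 of the 13, against 6438 of all 13390 tested probe sets. The score itself gave r = 0.438 (permutation p = 0.153, adjusted p = 0.408).

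LGALS3, galectin-3, had r = 0.80 with SPP1, ITGB2, a leukocyte integrin subunit, 0.71, FCER1G, an Fc receptor chain, 0.69, and GPNMB, a glycoprotein of lysosome-rich macrophages, 0.65. CD163, the haemoglobin scavenger receptor of resident macrophages, went the other way, with r = -0.33 at its brighter and -0.60 at its other probe set. CD163 averaged 8.69 ± 1.06 in high and 8.15 ± 0.63 in low sows. CD74, C1QA, C1QC and MRC1 had r of -0.36, -0.032, -0.061 and -0.12. In whole ovary, fewer cells of a type and less RNA per cell cannot be told apart, and the part of macrophage number in the SPP1 levels was not tested.

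Of the osteoclast and foam macrophage genes, 6 of 15 listed were tested, 1 was higher and 5 lower in the high group, 0 passed, and the median difference was -0.21 on the log2 scale. CTSK, the collagen-degrading cathepsin of osteoclasts, averaged 10.12 ± 0.39 in high and 10.41 ± 0.64 in low sows and had r = 0.77 with SPP1 and -0.20 with IBSP. APOE averaged 10.45 ± 0.50 in high and 10.44 ± 0.74 in low sows, with r = 0.57 to SPP1, and LPL and PLIN2 had r of -0.36 and -0.051. ATP6V0D2, a proton pump subunit of osteoclasts, was under 4 in all sows, at 2.49 to 2.56 in high and 2.52 to 3.96 in low sows. Its 3 highest values were those of low 5, low 3 and low 1, which were also the sows with the 3 highest SPP1 levels. CALCR, MMP9 and NFATC1 stayed under 4 in every sow.

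The genes most like SPP1 across the 12 sows were found among all tested probe sets with 1 symbol, as a description over sows that share 1 tissue and 1 platform. After ACP5 came SMPDL3A, a lysosomal phosphodiesterase of the acid sphingomyelinase family, with r = 0.909. SMPDL3A had log2 values of 9.08, 8.01, 8.41, 7.40, 7.93 and 7.62 in the high sows. It had log2 values of 9.95, 8.26, 9.93, 9.10, 9.54 and 8.12 in the low sows. Its difference was -1.07 on the log2 scale (limma adjusted p = 0.798), and low 2 and low 6 again lay among the high sows.

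LDHA, lactate dehydrogenase A, followed with r = 0.882, then PLRG1, a spliceosome protein, with 0.871, CTSZ, a lysosomal cathepsin, with 0.866, and SLC38A1, a glutamine transporter, with 0.865. NCAM1, an adhesion molecule, RPL23, a ribosomal protein, MATR3, a nuclear matrix protein, and THUMPD2 completed the 10, at 0.839, 0.814, 0.807 and 0.807. Other probe sets of the same gene gave at most 0.52 for PLRG1 and 0.061 for RPL23, but 0.84 for SLC38A1 and 0.77 for NCAM1. An r of 0.8 or more with SPP1 was found at 32 other probe sets, or 0.239% of those tested. Across the wide step in SPP1, r of SMPDL3A was 0.197 in the 6 lower and 0.795 in the 6 higher sows, and that of CTSZ 0.457 and 0.351.

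**Figure D4:**
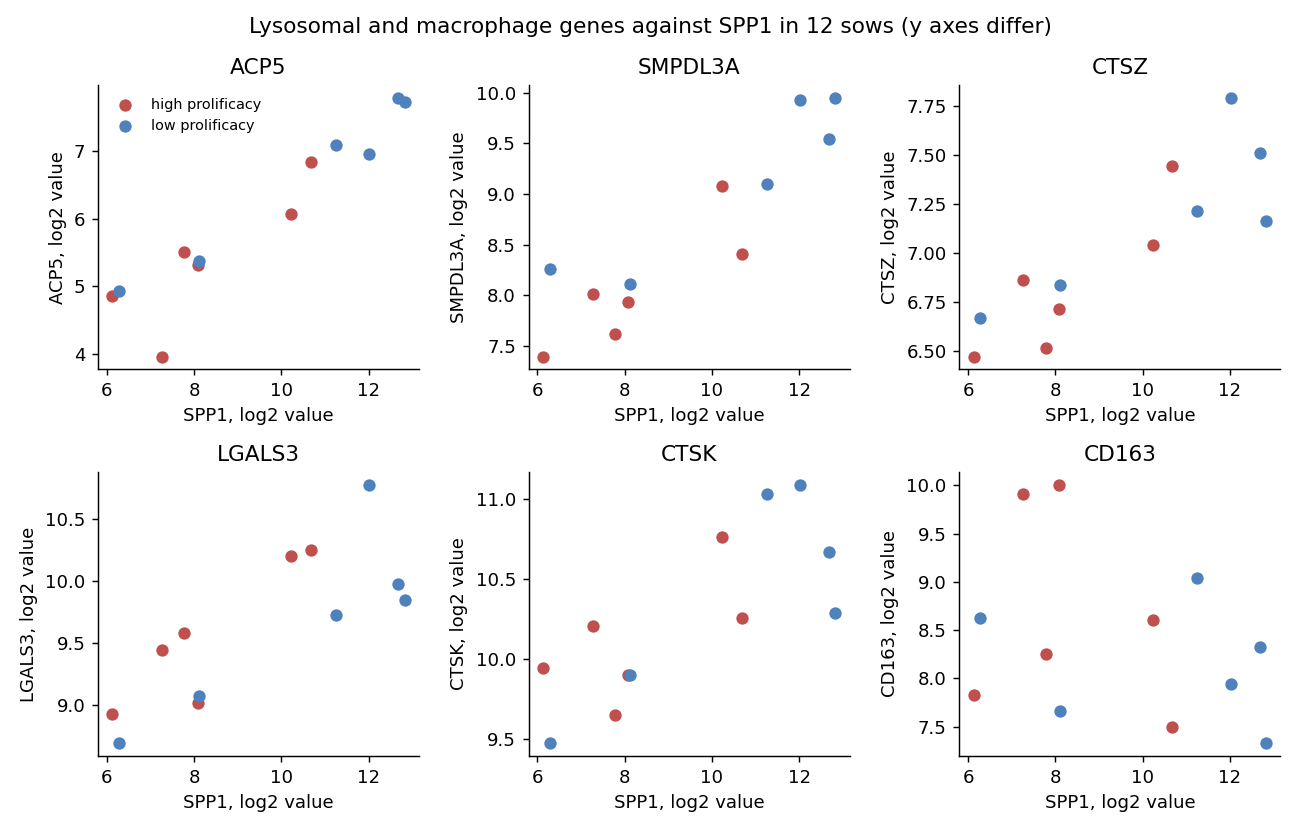
Log2 values of ACP5, SMPDL3A, CTSZ, LGALS3, CTSK and CD163 (y axes, which differ in range) against the log2 value of SPP1 (x axis), 1 point per sow with the group given by colour. Over 12 sows r is 0.944 for ACP5, 0.909 for SMPDL3A, 0.866 for CTSZ, 0.80 for LGALS3, 0.77 for CTSK and -0.33 for CD163.

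At the other end, the lowest r with SPP1 among named genes was that of FRS2, a docking protein of fibroblast growth factor receptors, at -0.849. WIPI1, an autophagy protein, was at -0.847, SCARB2, a lysosomal membrane protein, at -0.838, EMG1, a ribosome assembly factor, at -0.826, and PTGER3, a prostaglandin E2 receptor, at -0.808. The second probe sets of WIPI1 and SCARB2 had r of -0.39 and -0.21. An r of -0.8 or less was found at 24 probe sets, or 0.179%, and the lowest of them, at -0.962, had no symbol.

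The genes most like IBSP were different ones, and none of the 10 was among the 10 most like SPP1. COPB1, a coat protein of vesicles between Golgi and endoplasmic reticulum, had r = 0.862 with IBSP, HDDC2 0.857, SPINK4, a protease inhibitor, 0.849, and RAB8A, a GTPase of vesicle transport, 0.845. LAP3, an aminopeptidase, DCTN6, a dynactin subunit, GSTA1, a glutathione transferase, SLC25A5, an ADP/ATP carrier, PNO1, a ribosome assembly factor, and MRPL33, a mitochondrial ribosomal protein, lay between 0.840 and 0.798. These genes moved little in size compared with IBSP. COPB1, for example, covered 6.90 to 7.66 over the 12 sows, with means of 7.23 in high and 7.50 in low sows.

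Without the 2 sows farthest from the median IBSP level, r of the 10 genes lay between 0.518 for LAP3 and 0.804 for GSTA1. For the 10 genes most like SPP1, the values without low 1 and low 5 lay between 0.825 and 0.921. Other probe sets gave at most 0.32 for COPB1, 0.33 for SPINK4, -0.049 for RAB8A, 0.80 for LAP3, 0.61 for GSTA1 and -0.67 for MRPL33. The lowest r with IBSP were those of UBE4B, a ubiquitin ligase, at -0.857, HUS1, of the DNA damage checkpoint, at -0.856, PITRM1, a mitochondrial peptidase, at -0.853, NEIL1, a DNA glycosylase, at -0.845, and MINK1, a kinase, at -0.822. For MINK1, r was -0.22 without 2 sows. The second probe set of PITRM1 had r of -0.41, and the highest r at the other probe sets of NEIL1 was 0.21. An r of 0.8 or more with IBSP was found at 14 other probe sets or 0.105%, and of -0.8 or less at 21 or 0.157%.

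Some samples also held signal that is unusual for ovary, and its values are given beside SPP1 and IBSP. ALB, albumin of the liver, lay at 2.04 to 3.33 in 5 high sows and at 8.67 in high 5. In low sows it lay at 2.16 to 2.75 in 3 sows and at 12.61, 8.80 and 12.40 in low 1, low 3 and low 4. Those 3 low sows were also among the 4 with the highest SPP1, but low 5, with SPP1 at 12.68, had ALB at 2.16. Over 12 sows r of ALB was 0.507 with SPP1 (permutation p = 0.0911, adjusted p = 0.365 over 8 such relations) and 0.343 with IBSP (permutation p = 0.273, adjusted p = 0.472).

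Without the 4 sows with the highest ALB, the high minus low difference was -0.61 for SPP1 (limma adjusted p = 0.959) and -3.88 for IBSP (limma adjusted p = 0.893). With ALB as a covariate it was -1.41 for SPP1 and -2.27 for IBSP. Leaving out those sows thus moved the SPP1 difference toward 0 and that of IBSP away from it. The sows left out were high 5, low 1, low 3 and low 4, so fewer low than high sows remained. In that fit the SE was 1.52 for SPP1 and 1.28 for IBSP. The summed log2 values of 14 liver markers lay between 52.8 and 68.5 in high and between 53.9 and 128.1 in low sows. Those of 15 epithelial and endometrial gland markers lay between 41.28 and 45.82 in high and between 43.62 and 57.55 in low sows. Of these 15, which include ACP5, 9 were under 4 in every sow and 2 were tested, too few for a score. Without the level filter their score had r = 0.566 with SPP1 (permutation p = 0.0406, adjusted p = 0.244) and 0.213 with IBSP. The part of these signals in the differences was not tested further.

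The 3' minus 5' difference of the actin control probe sets, a measure of RNA quality, was 2.59 ± 0.45 in high and 2.12 ± 0.13 in low sows (SD, n = 6 each). Its r with SPP1 was -0.576 (permutation p = 0.0478, adjusted p = 0.365), at -0.863 within high and 0.158 within low sows, and its r with IBSP was -0.329 (permutation p = 0.295, adjusted p = 0.472). With it as a covariate the difference was -0.83 for SPP1 (limma adjusted p = 0.804) and -2.55 for IBSP (limma adjusted p = 0.407). The enzyme score, which went with SPP1, had r = -0.651 with the actin difference, and the osteoclast and foam macrophage score -0.364.

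CYP19A3, the aromatase of growing follicles, averaged 7.92 ± 3.66 in high and 9.11 ± 2.12 in low sows. Its r with SPP1 was 0.383 (permutation p = 0.215, adjusted p = 0.472), with 0.945 within high and -0.28 within low sows, and with IBSP it was 0.079. In the high group, high 1 and high 3 had the highest CYP19A3, at 12.74 and 11.59, and also the highest SPP1. In the low group low 6 had the highest CYP19A3, at 12.40, with SPP1 at 8.12. RSAD2, an interferon-responsive gene, had r = 0.0029 with SPP1 (permutation p = 0.993) and -0.13 with IBSP (permutation p = 0.694).

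Under the 23 other settings of the fit, the difference stayed lower in the high group for both genes and passed the adjusted threshold for neither. The adjusted p was between 0.654 and 1 for SPP1 and between 0.407 and 1 for IBSP.

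**Figure D5:**
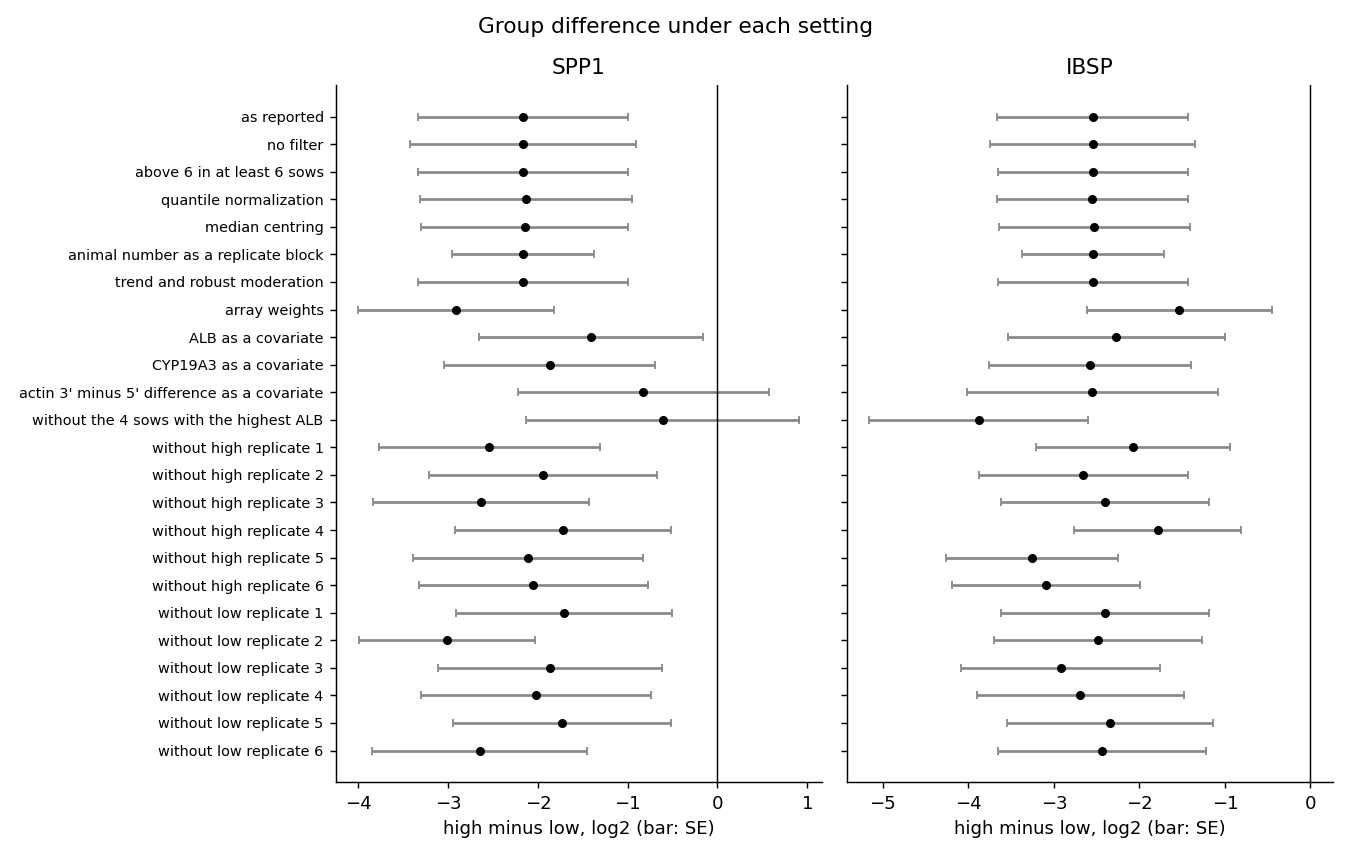
High minus low difference of SPP1 (left panel) and IBSP (right panel) on the log2 scale under each setting, with bars of 1 SE. All points lie below 0, SPP1 between -3.02 and -0.61 and IBSP between -3.88 and -1.53.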

How the data were processed

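Porcine Affymetrix arrays of 12 ovary samples, 6 high and 6 low prolificacy, gave 24123 probe sets per sow. The deposited values were taken as log2 values, a scale read from their range of 0.970 to 15.34. GCOS and GCRMA, versions not given in the sources used here, made these values, per the submitters' processing notes. GCRMA corrects background, normalizes between arrays and draws dim probe sets to a common floor. No value was missing, and 0 pairs of sows held identical values.

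Symbols came from the array annotation (10099 probe sets with 1 symbol, 198 with several, 13826 with none); an update by Entrez ID, matched for 9989, changed 0. Tests left out 124 control probe sets. The names of 62 porcine controls were displaced by 21 rows, judged by 19 spike pairs whose mean gap was 0.493 after moving and 5.17 before, and the actin difference rests on names moved back.

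The filter, above 4 in at least 6 sows, left 13390 probe sets (6656 with 1 symbol, for 5079 genes). The brightest probe set stood for a gene. The group comparison used limma 3.58.1 (lmFit, eBayes; R 4.3.3) without covariates, and Benjamini-Hochberg adjustment at 0.05. Relations to list scores used two-sided permutation tests with 100000 resamples (scipy 1.17.1, Python 3.11.15). The steps were tested on simulated data. The labels give no batch and no pairs. Deviations of same-numbered sows from their group means had correlations from -0.455 to 0.168, which cannot exclude pairing.

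The members, the gene lists and the tests were chosen with earlier results of these data known. Named are all measured genes of the SIBLING, receptor, enzyme and transcription factor lists, neighbours in the genome, the 10 genes with the highest and 5 with the lowest r to each gene, and up to 4 of each other list by smallest p; further list members, TTC38 and LITAF were named after their values were seen. Alternatives were other filters, normalizations, covariates, weights and moderation, a block, leaving out sows and, added later, exact permutation and scores without ACP5.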

Additional observations from a re-analysis of the deposited data

Results flagged for a closer look

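Among the genes and scores used here, 112 groups of 6 sows were examined for 1 sow far from the others, and 5 had one, against 5.6 that chance gives at about 1 in 20 groups. The score of the other bone matrix genes was lowest in high 4, at -0.594, with a gap to the next high sow of 0.65 of the group's range; high 4 was also the lowest sow in SPP1 and IBSP. The score of the immediate early and heat shock genes was highest in low 3 among the low sows, at 0.458, with a gap of 0.851 of the range. NCAM1, one of the genes most like SPP1, was lowest in low 2 among the low sows, at 3.09, where SPP1 was at 6.28. EMG1 was lowest in high 3 among the high sows, at 8.16, where SPP1 was the highest of the group, at 10.68. MINK1 was lowest in low 5 among the low sows, at 7.03, where IBSP was the highest of the group, at 10.42. NCAM1 was picked for its high r with SPP1, and EMG1 and MINK1 for their low r with SPP1 and IBSP. Their matches with the SPP1 and IBSP levels are thus partly fixed by that choice. SPP1 and IBSP themselves had no sow that stood so far apart in either group.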

How the results depend on the processing

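The lower levels of SPP1 and IBSP in the high group kept their direction and missed the adjusted threshold under all 23 alternatives of the fit. Leaving out each sow gave differences from -3.02 (without low 2) to -1.71 (without low 1) for SPP1 and from -3.26 (without high 5) to -1.79 (without high 4) for IBSP. Array weights gave -2.91 for SPP1 and -1.53 for IBSP, and the cause was not tested. An exact permutation test over 924 assignments, added later, gave p = 0.117 for SPP1 and p = 0.0736 for IBSP. The genes had been chosen with their group levels in view, so these p-values are descriptions too. With the animal number as a replicate block the differences stayed at -2.17 and -2.55, with limma adjusted p of 0.970 for both. Their SE fell from 1.17 to 0.79 for SPP1 and from 1.12 to 0.83 for IBSP. The labels name no pairs, and 0 sows correlated best with their own number, a count that cannot exclude pairing. The count of probe sets passing was 0 in all alternatives except without low 1, where it was 1, with no symbol (limma adjusted p = 0.0454); leaving out sows thus gave 0 to 1. The r between SPP1 and IBSP turned its sign with group means removed, without low 1 and low 5 together and without high 4, always within its SE. The same 2 list relations of SPP1 passed under 18 alternatives, at r of 0.866 to 0.914 and 0.797 to 0.901, and leaving out single sows gave 2 to 3 such relations, the third being other bone matrix genes without low 5. Without ACP5 the enzyme relation of SPP1 fell to r = 0.569, with permutation p = 0.0523. With 6 sows a group, the SE of the difference was 1.17 for SPP1 and 1.12 for IBSP, which limits what could be told for these 2 genes.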
